A study of Mus musculus with 12 samples.

Results

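The antioxidant enzymes described here are the superoxide dismutases Sod1, Sod2 and Sod3, the glutathione peroxidases Gpx1, Gpx3, Gpx4, Gpx7 and Gpx8, catalase (Cat) and peroxiredoxin Prdx1, a list of 10 genes. Their members were all probe sets that the platform tables pair with a single gene of this list, which gave 19 probe sets for 9 of the 10 genes, 15 on chip MOE430A and 4 on chip MOE430B, out of 35041 single-gene probe sets for 18161 genes. Prdx1 has 5 probe sets on MOE430A, and all are paired with a further gene, Gm21399, so no value is given for it. The RNA came from mouse mammospheres, clusters of mammary cells that grow in suspension and serve as a culture of candidate stem and progenitor cells. The undifferentiated group held passage 3 mammospheres in a mixture of DMEM and F12 with B-27, EGF, basic FGF and heparin, with a purity that the submitters put at 90% and myoepithelial cells as the remaining 10%. The differentiated group held cells from such spheres after 6 days of induction, cultured on collagen in high-glucose DMEM containing 5% fetal bovine serum, and was put at 50% myoepithelial and 50% luminal. Each group has 3 RNA samples, numbered 1, 2 and 4, and every sample was hybridised to both chips, which makes 12 Affymetrix arrays. No strain, age, genotype or number of animals is given for either group. No label says that the samples are separate cultures or animals, so p-values measure the spread between these RNA samples only, which may be technical. These are bulk samples, in which a change in the share of a cell type and a change in RNA per cell cannot be told apart.

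Superoxide dismutases turn superoxide into hydrogen peroxide and oxygen. Sod1 is the copper-zinc enzyme of the cytosol, Sod2 the manganese enzyme of mitochondria, and Sod3 a secreted copper-zinc enzyme that binds heparan sulfate in the extracellular matrix. The peroxide is then removed by catalase, which sits in peroxisomes, by peroxiredoxins such as Prdx1, which are recharged by thioredoxin, and by glutathione peroxidases. Gpx1 is the main cytosolic glutathione peroxidase, Gpx3 the secreted form found in plasma, and Gpx4 reduces lipid hydroperoxides within membranes and protects cells from ferroptosis. These enzymes carry selenocysteine in the active site, whereas Gpx7 and Gpx8 carry cysteine and work in the endoplasmic reticulum, where protein folding makes peroxide.

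The values are MAS5 signals, an intensity for each probe set, and the 2% trimmed mean was close to 1500 units on every array (means over arrays 1500.5 on MOE430A and 1500.2 on MOE430B). With 3 arrays a state and chip, the number of arrays sets the limit of precision. The highest signal of the trpn controls, which are bacterial sequences with no counterpart in mouse RNA, served as the background of each array. It lay between 516 and 829.8 on MOE430A and between 1674 and 2995 on MOE430B. Differentiated arrays were all run on fluidics station 1 and undifferentiated arrays on station 2, so station, serum, attachment and medium cannot be told apart from the state. Undifferentiated sample 1 was scanned on another day than the other 5 samples. Hybridisation controls on MOE430A read 2.88, 1.44 and 2.85 times the undifferentiated mean in differentiated samples 1, 2 and 4. On MOE430A, fibroblast markers were above background on all 6 arrays for 8 of 8 genes, with summed signals of 326231 to 331632 undifferentiated and 525646 to 733335 differentiated. The brightest were the collagens, with means from 56410 to 165550 for Col1a1, 80521 to 210066 for Col1a2 and 64896 to 164378 for Col3a1. Dcn went from 52783 to 52504, and Lum from 48781 to 17096. Of 8 myoepithelial or basal markers, 6 (Krt5, Krt14, Krt17, Trp63, Myh11 and Oxtr) were below background on all 6 arrays, and Acta2 alone was above it on all 6. Acta2 and Cnn1 were called higher, and the summed signals of the list were 7009.9 to 7298 undifferentiated and 45686 to 56837 differentiated, of which Acta2 alone made up means of 5580.5 and 50043. Cnn1 was above background on 0 undifferentiated and 2 differentiated arrays, and only its differentiated values brought it past the filter on low signal. Of 10 luminal markers, 6 (Epcam, Krt19, Gata3, Elf5, Esr1 and Pgr) were below background on all 6 arrays and Krt8 alone was above it on all 6, with summed signals of 3752 to 4258 undifferentiated and 3655 to 3817 differentiated. Most defining markers of the epithelial types in the labels were thus not above background, and the cells are called by their labels only.

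The comparison of differentiated with undifferentiated samples asks how the RNA of these enzymes differs between mammospheres and the attached cells derived from them. RNA signals of the secreted enzymes Sod3 and Gpx3 were much higher in the differentiated samples, and that of catalase was lower. Sod3 was at least 20.5-fold higher on its brighter probe set, Gpx3 was 7.88-fold higher, and Cat was 3.08-fold lower on the probe set that passed the test. Differentiated sample 1 was below background for Cat, so the size of that fall is uncertain. Sod1 was 1.48-fold higher on its brightest MOE430A probe set, a call that its other probe sets and most alternative settings did not share. Sod2, Gpx1, Gpx4, Gpx7 and Gpx8 had no probe set that passed.

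The test was limma's moderated test on log2(signal + 75), with Benjamini-Hochberg adjustment over all tested probe sets of a chip and a threshold of 0.05. All 15 MOE430A members passed the filter on low signal, a mean of at least 300.1 over the 6 arrays, as did 3 of the 4 on MOE430B. On MOE430A 4 of the 15 were called higher, where 14.1% of all tested probe sets were, and 1 of 15 was called lower, where 14.4% of all were. In either direction 5 of 15 were called beside 28.5% of all, so in number of calls the members stood near the background. The median fitted change over the 15 was 0.21 (log2) beside 0.03 over all 15939 tested probe sets, and the median size of change, regardless of sign, was 0.44 beside 0.36. The 3 values of each state did not overlap for 12 of the 15 (7 with the differentiated values above and 5 with them below), where 47.7% of all tested probe sets did not overlap, 24.1% with the differentiated values above and 23.5% with them below. On MOE430B 0 of 3 tested members were called by limma and 0 had an unadjusted p under 0.05, where 1.83% of all 17915 tested probe sets were called, 0.714% higher and 1.12% lower. The states overlapped for all 3 of these members, while 22.8% of the tested MOE430B probe sets did not overlap, 11.7% with the differentiated values above and 11.1% with them below.

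**Figure D1:**
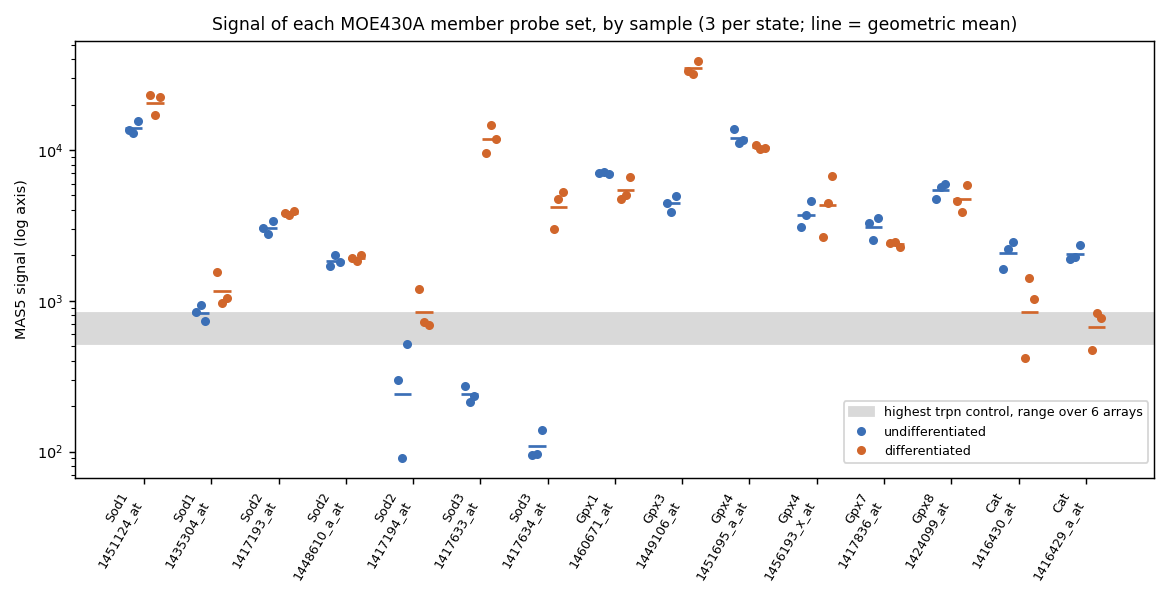
MAS5 signal on a log axis (vertical) of the 15 MOE430A member probe sets (horizontal), with 3 undifferentiated samples in blue, 3 differentiated samples in orange, a line at each geometric mean and the grey band over the range of array backgrounds (516 to 829.8). The undifferentiated Sod3 values lie below the band and the differentiated ones above it, the Gpx3 values separate with both states above it, and the differentiated Cat values reach into it.

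The promoters of Gpx3, Cat and Sod1 are shown because these are the members with a called change whose promoter is in the RefSeq table (build GRCm38.p6), which held 9 of the 10 genes. Sod3 had no entry. Each window runs from 250 bases before to 50 after the annotated start, 5′ to 3′ on the gene's strand, at chr11:54902604-54902903, plus strand, for Gpx3, chr2:103485104-103485403, minus strand, for Cat and chr16:90220512-90220811, plus strand, for Sod1. Capitals mark matches on either strand to the antioxidant response element core TGACNNNGC, bound by NRF2, the CCAAT box (CCAAT), the hypoxia response core ACGTG, the GC box GGGCGG and the TATA box TATAAA.
Gpx3: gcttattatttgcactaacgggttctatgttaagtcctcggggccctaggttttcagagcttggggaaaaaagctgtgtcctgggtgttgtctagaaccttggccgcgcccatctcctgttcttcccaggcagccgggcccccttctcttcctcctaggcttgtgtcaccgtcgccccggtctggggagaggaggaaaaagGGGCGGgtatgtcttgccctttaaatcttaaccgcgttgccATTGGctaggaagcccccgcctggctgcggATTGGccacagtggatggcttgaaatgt
Cat: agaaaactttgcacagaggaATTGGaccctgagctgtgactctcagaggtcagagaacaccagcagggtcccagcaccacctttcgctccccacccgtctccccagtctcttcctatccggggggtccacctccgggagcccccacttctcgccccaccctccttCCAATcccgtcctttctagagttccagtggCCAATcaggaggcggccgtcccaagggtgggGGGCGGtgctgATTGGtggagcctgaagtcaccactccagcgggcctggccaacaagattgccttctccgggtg
Sod1: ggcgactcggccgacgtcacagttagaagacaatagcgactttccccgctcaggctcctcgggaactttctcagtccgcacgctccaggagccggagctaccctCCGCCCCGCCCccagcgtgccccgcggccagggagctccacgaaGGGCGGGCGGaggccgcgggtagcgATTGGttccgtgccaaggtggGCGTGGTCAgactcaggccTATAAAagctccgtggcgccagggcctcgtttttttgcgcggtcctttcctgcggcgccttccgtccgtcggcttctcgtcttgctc
Over 32851 promoter windows of the same length, 12.4% held the antioxidant core, 37.4% a CCAAT box, 19.6% the hypoxia core, 35.7% a GC box and 13.6% the TATA letters. The Gpx3 window held 2 CCAAT boxes, both reversed, and 1 GC box, and the Cat window held 4 CCAAT boxes and 1 GC box. Neither held the antioxidant core, the hypoxia core or the TATA letters. The Sod1 window held 1 match to the antioxidant core, reversed, 1 reversed CCAAT box, 4 GC boxes in pairs that overlap each other, and 1 TATA box. No matches to different motifs overlapped. A match describes the letters of the window only.

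Sod3, the secreted dismutase of the matrix, was below background in the undifferentiated samples and bright in the differentiated ones. On probe set 1417633_at its signal was 274, 213 and 234 in undifferentiated samples 1, 2 and 4 and 9563, 14557 and 11830.1 in differentiated samples 1, 2 and 4. The undifferentiated values all lay below the background of their arrays and the differentiated values far above it, with differentiated sample 2 the highest. Raising the undifferentiated values to the background gave a rise of at least 20.5-fold. Before raising, the means were 241 ± 30.8 and 11983 ± 2501 (SD, n = 3 each). The fit used the values before raising, so its adjusted p = 1.85e-05 by limma does not belong to that fold. Its other probe set, 1417634_at, read 95.6, 96.4 and 139.7 in undifferentiated samples 1, 2 and 4 and 2975, 4769.9 and 5275 in differentiated samples 1, 2 and 4. Here too the states were wholly apart and the undifferentiated values below background, and the rise was at least 7.31-fold. The fit, again on values before raising, gave adjusted p = 4.56e-05 by limma. Only the differentiated values brought these probe sets past the filter on low signal. Both probe sets passed under all 19 alternative settings. Since the low state was not measured, the fitted changes depended on the offset added before log2, and for 1417633_at they were 5.54, 5.24 and 4.49 with offsets of 1%, 5% and 20% of the trimmed mean. For 1417634_at they were 5.09, 4.54 and 3.46 with the same offsets.

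Sod1 was called on 1 of its 4 tested probe sets. The brightest on MOE430A, 1451124_at, read 13505, 13021 and 15502 in undifferentiated samples 1, 2 and 4 and 23015, 17027 and 22531 in differentiated samples 1, 2 and 4. The states did not overlap, and differentiated samples 1 and 4 were higher than sample 2. The fitted change was 0.56 ± 0.16 (log2, SE), with adjusted p = 0.0394 by limma. It passed under 7 of 19 alternatives. Among the fits without a single sample it passed without differentiated sample 2, at 0.70 (adjusted p = 0.0206 by limma), and missed the threshold without any of the other 5, with adjusted p by limma from 0.0678 to 0.119. The fitted change was 0.28 (adjusted p = 0.335 by limma) without differentiated samples 1 and 4, the arrays with the higher hybridisation controls, and -0.62 when arrays were scaled on those controls, which is 0.45 above the median of the chip under that scaling. The dimmer MOE430A probe set 1435304_at pointed the same way without passing, at 0.44 ± 0.20 (log2, SE) with adjusted p = 0.138 by limma. On MOE430B the probe set 1459976_s_at, whose suffix marks probes shared by several transcripts, read 23610.2, 26082 and 34801 in undifferentiated samples 1, 2 and 4 and 30199.8, 23355 and 30759 in differentiated samples 1, 2 and 4. Those states overlapped, with a fitted change of 0.0059 ± 0.27 (log2, SE) and a 95% interval of -0.63 to 0.64. Of the remaining 2 MOE430B probe sets, 1440222_at lay below background on all 6 arrays at 0.13 ± 0.36 (log2, SE), and 1447761_x_at did not pass the filter, with values from 38.1 to 413. No tested probe set had a fitted fall, and the probe sets differed in call and precision.

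Sod2, the mitochondrial dismutase, had no call on any of 4 probe sets. The brightest, 1417193_at, read 3020.2, 2761 and 3395 in undifferentiated samples 1, 2 and 4 and 3852, 3737 and 3927 in differentiated samples 1, 2 and 4. The differentiated values all lay above the undifferentiated ones, by 0.33 ± 0.13 (log2, SE) with a 95% interval of 0.026 to 0.62, and the adjusted p was 0.0966 by limma. Probe set 1448610_a_at, designed to several transcripts of the gene, overlapped between the states and changed by 0.063 ± 0.12 (log2, SE), with an interval of -0.23 to 0.35. The dim 1417194_at read 296, 90.5 and 520.4 in undifferentiated samples 1, 2 and 4 and 1198, 722 and 689 in differentiated samples 1, 2 and 4. Only sample 4 of the undifferentiated ones was above its background, the states did not overlap, and the fitted 1.47 ± 0.46 (log2, SE) missed the threshold (adjusted p = 0.0503 by limma). It passed under 4 of 18 alternatives, and was called without undifferentiated sample 4, at 1.89 (adjusted p = 0.0289 by limma). Without undifferentiated sample 2, the lowest, the change was 0.97 (adjusted p = 0.0827 by limma). On MOE430B 1454976_at was below background on all 6 arrays, with values from 855 to 1318.

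**Figure D2:**
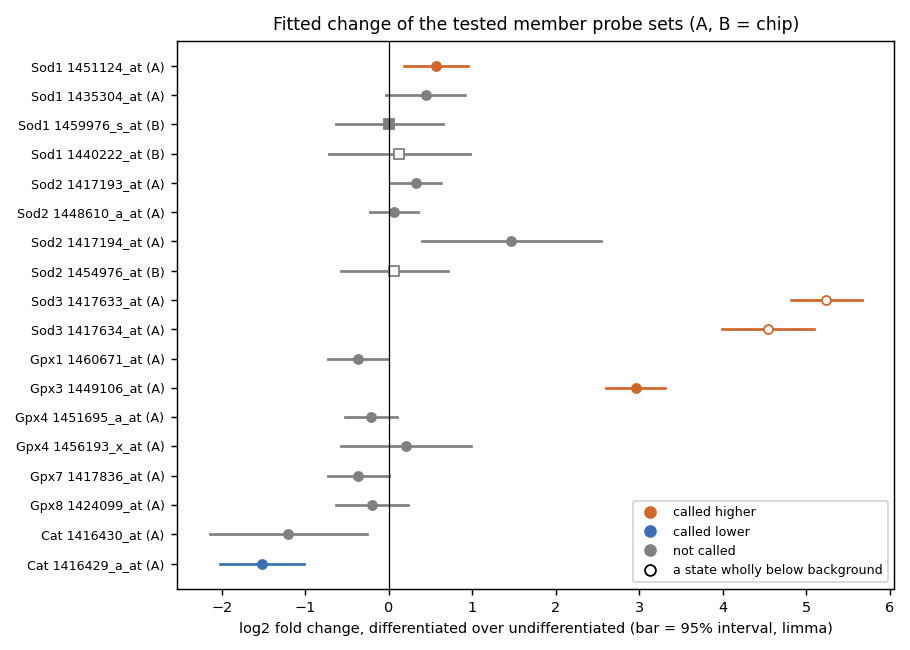
Fitted log2 fold change, differentiated over undifferentiated (horizontal), with limma's 95% interval for the 18 tested member probe sets (vertical), circles for MOE430A and squares for MOE430B, coloured by call and open where a state lies wholly below background. Sod3 and Gpx3 stand to the right, at 5.24, 4.54 and 2.96, Cat stands to the left, and the other glutathione peroxidases cluster near 0.

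Among the glutathione peroxidases, the secreted Gpx3 rose and none of the other 4 genes passed. The signal of Gpx3 (1449106_at) was 4453, 3902 and 4987 in undifferentiated samples 1, 2 and 4 and 33589, 32156 and 39206 in differentiated samples 1, 2 and 4. Both states were well above background and wholly apart, and the lowest differentiated value was several times the highest undifferentiated one. The mean went from 4447 ± 542 (SD, n = 3) to 34984 ± 3726 (SD, n = 3), a fitted change of 2.96 ± 0.15 (log2, SE) with adjusted p = 4.28e-05 by limma. That change was larger than those of 99.5% of tested MOE430A probe sets. It passed under all 19 alternatives, with fitted changes from 1.78 to 3.04. Without undifferentiated sample 1, which leaves the arrays of a single scan day, it was 2.96 (adjusted p = 0.000604 by limma).

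Gpx1, the cytosolic enzyme, read 6998, 7105 and 6937 in undifferentiated samples 1, 2 and 4 and 4751, 5066 and 6602 in differentiated samples 1, 2 and 4. The differentiated values were all lower, though sample 4 came close to the undifferentiated ones, and the fitted -0.37 ± 0.15 (log2, SE) did not pass (adjusted p = 0.115 by limma, 95% interval -0.73 to -0.0061). Without differentiated sample 4 it was called lower, at -0.51 (adjusted p = 0.0387 by limma). Gpx7 (1417836_at) showed the same order without passing, with undifferentiated values from 2526 to 3521, differentiated values from 2288 to 2444 and a fitted -0.36 ± 0.15 (log2, SE), adjusted p = 0.12 by limma. Gpx8 (1424099_at), the other peroxidase of the endoplasmic reticulum, overlapped between the states at 4753 to 5955 and 3894 to 5889, a fitted -0.20 ± 0.18 (log2, SE). For Gpx4 the brighter 1451695_a_at went from 12144 ± 1371 (SD, n = 3) to 10428 ± 283 (SD, n = 3), a fitted -0.21 ± 0.13 (log2, SE) with an interval of -0.52 to 0.093. The other Gpx4 probe set, 1456193_x_at, whose suffix warns of probes that can match other sequences, ranged from 2668 to 6762 within the differentiated samples and overlapped the undifferentiated ones. These results do not show that the levels were equal. With the hybridisation controls as the scale all 5 of these probe sets were called lower, at -0.95 to -1.54, beside a median of -1.07 over all tested probe sets. Under that scaling they all had the same SE, 0.40 (log2), so those calls do not measure the spread of each probe set.

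Catalase was lower in the differentiated samples. On 1416429_a_at its signal was 1899, 1942 and 2353 in undifferentiated samples 1, 2 and 4 and 469, 825 and 764 in differentiated samples 1, 2 and 4. All differentiated values lay below the undifferentiated ones, and sample 1, the lowest, was below its background of 829.8. The RNA signal was thus above background on 2 of 3 differentiated arrays, and the size of the change is uncertain. The fitted change was -1.52 ± 0.21 (log2, SE), with adjusted p = 0.0028 by limma, and it passed under all 19 alternatives. The second probe set, 1416430_at, read 1623, 2209 and 2469.8 in undifferentiated samples 1, 2 and 4 and 415, 1423 and 1029 in differentiated samples 1, 2 and 4. Here too differentiated sample 1 was below its background. The states of this probe set did not overlap either, but differentiated sample 2 came close to undifferentiated sample 1. Its fitted -1.20 ± 0.40 (log2, SE) missed the threshold (adjusted p = 0.0615 by limma). It passed under 7 of the 19 alternatives, among them the fit without differentiated sample 2, at -1.54 (adjusted p = 0.0306 by limma), and the change was -0.52 without differentiated samples 1 and 4. Catalase was lowest in differentiated sample 1 on both probe sets, one of the samples with high hybridisation controls, whose part in the size of the change was not tested.

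**Figure D3:**
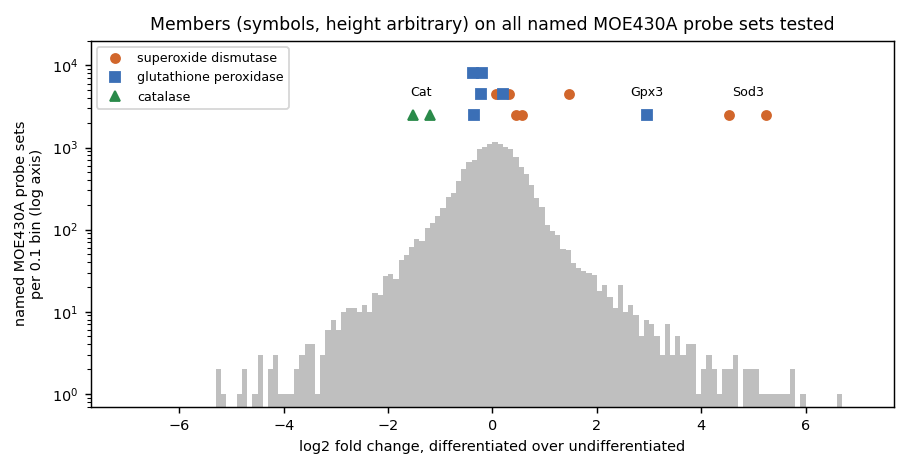
Number of named MOE430A probe sets (vertical, log axis) per bin of fitted log2 fold change (horizontal), with the 15 member probe sets as symbols at arbitrary height, circles for dismutases, squares for glutathione peroxidases and triangles for catalase. Sod3 and Gpx3 fall in the upper tail and Cat on the lower slope, and the other members lie in the bulk or, for 1 Sod2 probe set, at 1.47.

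The hybridisation controls were higher in the differentiated arrays, and the scale chosen bears on the smaller changes. Scaling on those controls brought the median change to -1.07 (log2) on MOE430A and -0.92 on MOE430B, and the poly-A controls brought it to 0.049 and 0.17. Relative to the -1.07 of MOE430A, under the hybridisation controls, the Sod3 probe sets were still at 5.25 and 4.65, Gpx3 at 2.85, Cat at -1.53 and -1.21, and Sod1 (1451124_at) at 0.45. A ratio within an array is free of the scale, so members were also set against the mean log2 signal of Gpx1, Gpx4 (1451695_a_at), Gpx7 and Gpx8 on the same array, a measure chosen after the values were seen. That base was itself lower in the differentiated samples, with fitted changes of -0.37 to -0.20 for its 4 probe sets, none past the threshold, so each ratio lies above the change of the member alone. Against it Gpx3 was higher by 3.26, 3.24 and 3.30 (log2) in differentiated samples 1, 2 and 4 than in the undifferentiated mean, whose samples had an SD of 0.11. Cat (1416429_a_at) stood at -1.80, -0.93 and -1.27, and Sod1 (1451124_at) at 1.05, 0.67 and 0.85. Sod2 (1417193_at) stood at 0.67, 0.68 and 0.52. The states did not overlap in these ratios, whereas that of Cat 1416430_at overlapped, at -1.99, -0.16 and -0.85. Both Cat signals of differentiated sample 1 were below background, so the sizes of its Cat ratios, -1.80 and -1.99, are uncertain. No ratio is given for Sod3, whose undifferentiated level was not measured. The ratios describe the arrays and were not tested.

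**Figure D4:**
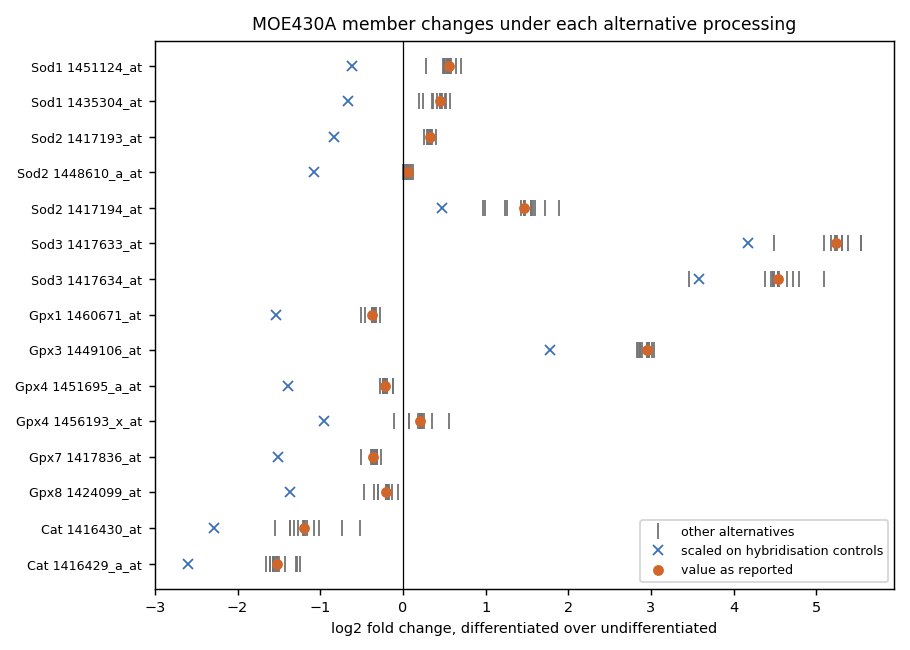
Fitted log2 fold change (horizontal) of each MOE430A member probe set (vertical) as reported (orange), under scaling on the hybridisation controls (blue crosses) and under the other alternatives (grey ticks). Scaling on the controls shifts all members to the left and turns the sign of both Sod1 probe sets, of 2 Sod2 probe sets and of 1 Gpx4 probe set, while Sod3 and Gpx3 stay above 0 and Cat below it.

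Genes that work with these enzymes were described through lists taken as background, with 1 probe set per gene. Of 48 tested genes 8 were called higher and 7 lower, where 9.25% and 9.28% of all genes were, and their median change was -0.06 (log2) beside 0.04 over all genes. All of these calls fell among the 43 genes read on MOE430A, where 14.1% of all tested probe sets were called higher and 14.4% lower, so the lists' counts stood near that background. The thioredoxin group had 1 of 10 genes higher and 3 lower. Txnip, an inhibitor of thioredoxin, went from 3145 ± 224 to 18283 ± 2150.4 (SD, n = 3 each), a change of 2.51 ± 0.14 (log2, SE, adjusted p = 5.68e-05) by limma, and its other probe set also passed. Txnrd1, the cytosolic thioredoxin reductase and an NRF2 target, changed by -1.46 ± 0.14 (log2, SE, adjusted p = 0.000539) and Srxn1, which repairs overoxidised peroxiredoxins, by -0.94 ± 0.14 (log2, SE, adjusted p = 0.00338). Of the 3 probe sets tested for Txnrd1, 1 did not pass, and of the 4 for Srxn1, 1 pointed up without passing.

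Of the other peroxiredoxins and glutathione peroxidases 4 genes were tested and 1, Prdx2, was lower, at -0.52 ± 0.14 (log2, SE, adjusted p = 0.0355) by limma. Another Prdx2 probe set, below background in both states, pointed up without passing, at 0.25. In the list of enzymes that make superoxide or peroxide 3 of 9 were higher and 1 lower. Beside the counts of each list, 14.1% of all tested MOE430A probe sets were called higher and 14.4% lower. This list and those of selenoprotein synthesis and peroxisome assembly also count genes read on MOE430B, 5 in total. On that chip 0.714% of all tested probe sets were called higher and 1.12% lower. Lox, the matrix cross-linking oxidase that releases peroxide, changed by 4.96 ± 0.14 (log2, SE, adjusted p = 1.52e-05) by limma. Nox4, an NADPH oxidase, was at least 3.01-fold higher, from undifferentiated values below background. Its fit on the values before raising them to background gave adjusted p = 0.000817 by limma. Cyba, the p22phox partner of NADPH oxidases, changed by -0.44 ± 0.11 (log2, SE, adjusted p = 0.0256). Of 7 genes that supply metal to the dismutases 1 was lower, Atp7a, the copper pump that loads secreted copper enzymes, at -1.19 ± 0.13 (log2, SE, adjusted p = 0.00105), while a second Atp7a probe set lay below background. Further probe sets of genes not called on the one used were called lower for Slc31a1, a copper importer, at -0.55 ± 0.13 (log2, SE, adjusted p = 0.0204), and higher for Slc39a14, a metal importer, at 0.80 ± 0.17 (log2, SE, adjusted p = 0.0141), both by limma and named after their values were seen.

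Of 12 tested peroxisome assembly genes 3 were higher and 1 lower, with 8 not called. The shares over all tested MOE430A probe sets were 14.1% higher and 14.4% lower. Pex19, a chaperone of peroxisomal membrane proteins, changed by 0.79 ± 0.12 (log2, SE, adjusted p = 0.00359) and Pex11a, which acts in peroxisome division, by 0.77 ± 0.21 (log2, SE, adjusted p = 0.0338), both by limma. Pex2, a ubiquitin ligase of the import machinery, changed by -0.46 ± 0.11 (log2, SE, adjusted p = 0.0249), while a probe set of the gene on the other chip did not pass, at 0.55. Of 6 genes for selenoprotein synthesis 1 was called higher, Sepsecs, with both states below background. None was called lower on the probe set used, but a second Sephs2 probe set was, at -0.56 ± 0.17 (log2, SE, adjusted p = 0.047) by limma (named after its value was seen), while the one used stood at 0.22. Markers of other cells moved as follows on MOE430A beside the rises of Sod3 and Gpx3. Fibroblast markers had 5 of 8 genes higher and 1 lower, where 14.1% and 14.4% of all tested MOE430A probe sets were. The same shares stand beside the marker counts that follow. Of 8 macrophage and leukocyte markers 2 were higher, Lyz2 and Csf1r, both above background on all 6 arrays. Their changes were 0.94 ± 0.25 and 0.77 ± 0.12 (log2, SE), with adjusted p = 0.0324 and 0.00472 by limma. None was called lower, and Cd68 pointed down without passing, at -0.46. Ptprc, Itgam and Fcer1g were below background on all 6 arrays, and Ptprc and Itgam were not tested. The summed signals of the list were 5317 to 6468 undifferentiated and 7863 to 9693 differentiated. Endothelial markers had 1 of 6 higher and 2 lower, with Vwf not tested. The 2 called lower, Pecam1 and Tek, were each above background on 2 undifferentiated and 0 differentiated arrays. The summed signals of the endothelial list were 3313 to 4004 undifferentiated and 3018 to 3985 differentiated. Of 4 adipocyte markers on the chip, Adipoq, Lep and Pparg were below background on all 6 arrays and did not pass the filter. Only Fabp4 was tested, and it was not called. The adipocyte list had summed signals of 547 to 1045 undifferentiated and 703 to 960.3 differentiated. The erythroid genes Hba-a1 and Alas2 were below background on all 6 arrays and were not tested either. The part of these cells in the rises was not tested.

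**Figure D5:**
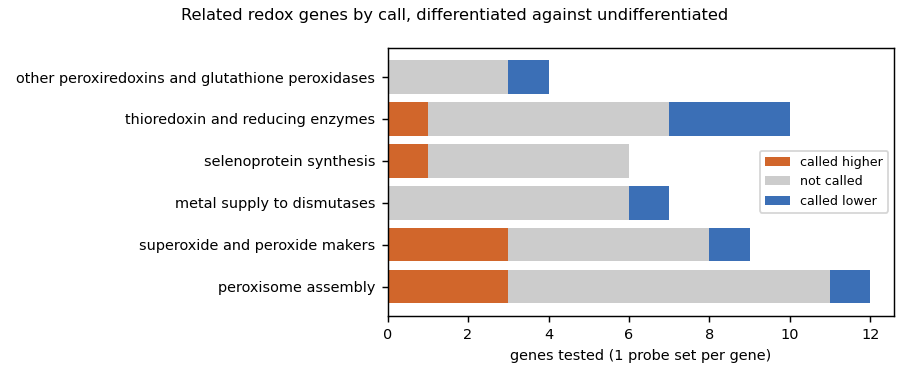
Number of genes tested in each related list (horizontal), split into called higher (orange), not called (grey) and called lower (blue) in the differentiated samples. Thioredoxin and reducing enzymes have 3 genes called lower, and the lists of peroxide makers and of peroxisome assembly have 3 called higher each. Over all tested MOE430A probe sets 14.1% were called higher and 14.4% lower. The lists also count 5 genes read on MOE430B, where 0.714% were called higher and 1.12% lower.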

How the data were processed

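Each of 6 mouse mammosphere RNA samples, 3 of either state, was run on both chips, per the labels. The deposited value of a probe set is a linear intensity computed by the authors with MAS5, per the submitters' processing notes, and no MAS5 version is given in the sources used here. Detection calls were not used here. Symbols came from the platform tables, updated through a RefSeq table (GRCm38.p6).

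The analysis used R 4.3.3, limma 3.58.1 and Python 3.11.15. Arrays were scaled to their common trimmed mean (2% off each end), an offset of 5% of it was added before log2, and probe sets with a mean of at least 20% of it were tested with limma's lmFit and eBayes, each chip apart and with no covariate. AFFX controls (64 per chip) were not tested. The fit was tested on simulated data. A state with all values below the highest trpn control of its arrays was raised to it to give an "at least" fold. The members, gene lists and tests were chosen with earlier results of these data known. All member probe sets are named whatever their values, and up to 2 rises and 2 falls from each related list. Alternatives were other scalings, offsets, filters and priors, blocks, left-out samples and a joint adjustment. Same-numbered samples of the states did not deviate together (r from -0.02 to 0.05 across probe sets), so the numbers were not taken as pairs.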

Additional observations from a re-analysis of the deposited data

How the results depend on the processing

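With 3 samples a state the arrays limit precision, and on MOE430B most probe sets lay below background. Of 18 member probe sets, both of Sod3, that of Gpx3 and 1416429_a_at of Cat kept direction and call under all 19 alternatives. The Sod3 probe sets passed the filter on low signal only through their differentiated values. These alternatives are not separate checks. The deposited values nearly repeat the reported fit. The scan day as a block gives the changes found without undifferentiated sample 1, which was alone on its day. Sod1 (1451124_at) kept its call under 7, with adjusted p by limma from 0.00773 to 0.335. The MOE430A count of 4550 became 11188 with hybridisation controls, 2.08% of them higher against 49.5%, 2514 with poly-A controls and 2501 without differentiated samples 1 and 4, and lay at 2751 to 3870 without any single sample, lowest without undifferentiated sample 2 (2851) or 4. The MOE430B count of 328 became 1512, 168 and, by limma, 0 (2166 at an unadjusted p under 0.05) under the same settings (39.0% higher as reported, 2.25% and 49.4% with these 2 scalings), 838 with trend and robust priors, 58 with the scan day as a block, 792 adjusted over both chips and 39 to 145 without any single sample. With the sample number as a replicate block limma called 0 there (2505 at an unadjusted p under 0.05) and 3563 on MOE430A, with 3 members higher (Sod1 1451124_at at adjusted p = 0.0512), 2 lower and 4 related genes lower. Members called lower numbered 8 with hybridisation controls, 2 with poly-A controls, 2 with the larger offset, 2 with the stricter filter, 3 with trend and robust priors and 1 to 2 without any single sample, where the second was Cat 1416430_at without differentiated sample 2 and Gpx1 without differentiated sample 4. Members called higher lay at 3 to 4 without any single sample, Sod1 being lost without any sample but differentiated sample 2. Without undifferentiated sample 4, Sod2 1417194_at was called higher (1.89) in place of Sod1. Related genes called higher and lower numbered 2 and 33 with hybridisation controls, 5 and 3 with poly-A controls, 5 and 4 with the scan day, 5 and 4 without differentiated samples 1 and 4, and 5 to 6 and 4 to 7 without any single sample. With hybridisation controls, which moved the median of all probe sets to -1.07 on MOE430A and -0.92 on MOE430B, the sign turned for Sod1 at -0.62 (1451124_at), -0.66, -1.01 and -0.82, for Sod2 at -0.84, -1.08 and -0.88 (MOE430B) and for Gpx4 1456193_x_at at -0.95. Relative to these medians, Sod1 and Sod2 on MOE430A stood at 0.45, 0.41, 0.24 and -0.0046, and that Gpx4 probe set at 0.12. Under that scaling all MOE430A members had the same SE, 0.40 (log2), so their calls do not measure the spread of each probe set. The uncalled values near 0 also turned elsewhere: Sod1 1459976_s_at at -0.11 with the scan day and -0.25 without differentiated samples 1 and 4, Sod2 1454976_at at -0.039 with the scan day, and Sod2 1448610_a_at at -0.0030 without differentiated samples 1 and 4. Without any single sample their ranges were -0.11 to 0.17, -0.039 to 0.25 and 0.011 to 0.12, and those of Sod1 1440222_at and Gpx4 1456193_x_at were -0.17 to 0.36 and -0.11 to 0.55. The sample numbers pair nothing in the labels. Filtering changed the genes tested and leaving samples out the number of samples, and for the other settings the cause was not tested.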
